A study of Homo sapiens with 10 samples.

Results

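The 8 genes described here encode the enzymes that remove methyl groups from lysine 4 of histone H3 (H3K4) and the CoREST scaffold proteins that work with some of them. They were taken from a list of gene names: KDM5A, KDM5B, KDM5C, KDM1A, KDM1B, RCOR1, RCOR2 and RCOR3, out of 20098 protein-coding genes that GENCODE release 44 places on the autosomes or on chromosome X. All 8 were found in the annotation. For each gene, the peaks of ZMYND8 and FLAG-ZMYND8 were counted, placed and sized within 3 kb of the transcription start site (TSS, here the 5′ end of the gene) and along the gene body.

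The peaks came from ChIP-seq, in which DNA bound by a protein is recovered from crosslinked chromatin and sequenced, in HEK293, a line of human embryonic kidney origin. The series held 10 samples, with 2 each for ZMYND8, FLAG-ZMYND8, H3K14ac and H3K27ac ChIP, 1 input and 1 FLAG input. The ZMYND8 samples were made with an antibody to the protein itself, in Flp-In T-REx HEK293 cells whose labels name 3xFLAG-ZMYND8 or its N228F mutant without saying which was used. The FLAG-ZMYND8 samples were made with an anti-Flag antibody in Flp-In T-REx HEK293 cells that overexpressed full-length 3xFLAG-ZMYND8 after 10 nM doxycycline. A single peak list per target was deposited, so neither a spread between replicates nor the sequencing depth could be given, and the differences below carry no test. The histone mark and input samples were not analysed here.

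ZMYND8 is a chromatin protein whose PHD finger, bromodomain and PWWP domain read modified histones and hold DNA, and it has been linked to the KDM5 enzymes and to corepressor complexes. The KDM5 enzymes are iron-dependent dioxygenases that can remove the trimethyl mark of active promoters. KDM1A (LSD1) and KDM1B (LSD2) are flavin-dependent oxidases limited to monomethyl and dimethyl H3K4. KDM1A acts on nucleosomes when it is held by the CoREST protein RCOR1 together with the deacetylases HDAC1 and HDAC2. RCOR2 and RCOR3 are the other CoREST proteins.

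Every gene had a peak of at least 1 list within 3 kb of its TSS, where 37.2% of all protein-coding genes had none. This rested on the setting: KDM5C had none within 1 kb, and KDM5C and KDM1A had none within 500 bp. Among peaks wider than the minimum, KDM5C and KDM1B had none. At KDM5B peaks of both lists covered the same bases. The sequences of the ZMYND8 peaks at the 4 genes that had one are printed first, because KDM5B was the sole gene where such a peak lay on a FLAG-ZMYND8 peak. All sequences are of hg19, plus strand, 5′ to 3′. In the first of them, capitals mark the bases that both lists covered.
KDM5B ZMYND8 peak (chr1:202779778-202779928): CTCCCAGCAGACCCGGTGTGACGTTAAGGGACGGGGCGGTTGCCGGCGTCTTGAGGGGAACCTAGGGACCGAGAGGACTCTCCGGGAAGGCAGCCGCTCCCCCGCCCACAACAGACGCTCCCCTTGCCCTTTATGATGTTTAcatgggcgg
The ZMYND8 peaks of KDM5C and KDM1B shared no base with a FLAG-ZMYND8 peak and are therefore in lower case throughout.
KDM5C ZMYND8 peak (chrX:53252843-53252993): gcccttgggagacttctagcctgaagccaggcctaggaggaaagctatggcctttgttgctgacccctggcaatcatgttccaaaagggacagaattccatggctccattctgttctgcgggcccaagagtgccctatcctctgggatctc
KDM1B ZMYND8 peak (chr6:18155891-18156041): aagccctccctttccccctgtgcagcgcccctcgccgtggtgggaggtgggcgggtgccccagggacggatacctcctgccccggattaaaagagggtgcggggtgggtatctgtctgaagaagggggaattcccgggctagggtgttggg
The RCOR2 ZMYND8 peak lay in a gap between FLAG-ZMYND8 peaks. The central 300 bases of its 380 are shown with the next FLAG-ZMYND8 peak upstream of it, and with the FLAG-ZMYND8 peak of KDM1A, a gene without a ZMYND8 peak. In these 3 sequences capitals mark CpG dinucleotides.
RCOR2 ZMYND8 peak, central part (chr11:63685792-63686091): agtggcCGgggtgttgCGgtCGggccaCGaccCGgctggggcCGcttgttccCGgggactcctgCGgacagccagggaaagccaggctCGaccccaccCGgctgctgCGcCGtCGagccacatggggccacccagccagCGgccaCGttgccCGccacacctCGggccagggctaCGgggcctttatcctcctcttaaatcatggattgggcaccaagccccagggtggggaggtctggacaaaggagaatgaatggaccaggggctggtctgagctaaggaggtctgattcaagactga
RCOR2 FLAG-ZMYND8 peak (chr11:63686525-63686745): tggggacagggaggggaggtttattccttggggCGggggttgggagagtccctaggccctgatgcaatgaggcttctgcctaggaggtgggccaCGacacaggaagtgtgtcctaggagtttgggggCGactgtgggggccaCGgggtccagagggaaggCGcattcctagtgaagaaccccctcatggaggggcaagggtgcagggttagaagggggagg
KDM1A FLAG-ZMYND8 peak (chr1:23346487-23346782): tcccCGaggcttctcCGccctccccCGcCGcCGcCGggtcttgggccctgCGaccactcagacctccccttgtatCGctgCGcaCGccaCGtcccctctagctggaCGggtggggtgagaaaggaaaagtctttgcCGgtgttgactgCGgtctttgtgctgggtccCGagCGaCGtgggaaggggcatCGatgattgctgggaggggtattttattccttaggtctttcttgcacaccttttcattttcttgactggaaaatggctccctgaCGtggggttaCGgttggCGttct

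ZMYND8 peaks lay within 3 kb of the TSS of 4 of the 8 genes, KDM5B, KDM5C, KDM1B and RCOR2, against 34.1% of all protein-coding genes. This count rested on the window and on narrow peaks: it was 1 of 8 within 1 kb (28.5% of all protein-coding genes), 1 of 8 within 500 bp (21.5%) and 1 of 8 with peaks wider than the minimum (23.0%), below the background each time. FLAG-ZMYND8 peaks lay there at 6 of the 8, KDM5A, KDM5B, KDM1A, RCOR1, RCOR2 and RCOR3, against 58.1% of all protein-coding genes. KDM5B and RCOR2 had peaks of both lists (2 of 8, background 29.4%), a count that fell to 0 within 1 kb or 500 bp and to 1 with wider peaks. KDM5C and KDM1B had a ZMYND8 peak only (2 of 8, background 4.73%). Within 1 kb or 500 bp KDM1B alone kept this pattern, and with wider peaks neither gene did. KDM5A, KDM1A, RCOR1 and RCOR3 had a FLAG-ZMYND8 peak only (4 of 8, background 28.7%), and 0 of the 8 had neither, where 37.2% of all protein-coding genes did. That too rested on the setting. KDM5C had neither within 1 kb, KDM5C and KDM1A had neither within 500 bp, and KDM5C and KDM1B had neither with wider peaks. At 1 of the 8, KDM5B, peaks of the lists overlapped by at least 1 bp, a share near the background of 20.3%, and under each of those 3 settings the count was 0. For both lists, a single list, neither list and overlap, the background was taken with all peaks within 3 kb only. Whether the changes under the other settings were particular to these genes therefore cannot be told. Over all protein-coding genes with both kinds of peak, 69.2% had an overlapping pair.

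The ZMYND8 peaks at these TSSs were few and narrow, whereas the FLAG-ZMYND8 peaks were more numerous and several were wide. There were 4 ZMYND8 peaks, 2 upstream and 2 downstream of the TSS. Of these, 3 had the minimum width of the list, 151 bp, and the RCOR2 peak had 380 bp. There were 16 FLAG-ZMYND8 peaks, 8 on each side of the TSS, with widths from 167 to 812 bp and a median of 298.5 bp, and 3 of them had the minimum width of that list, 167 bp. Width was the sole measure of size, because the score of every peak was 1. Among all peaks within 3 kb of a protein-coding TSS, 6360 were of ZMYND8 and 19184 of FLAG-ZMYND8, so the latter were more numerous there too. Of these, 36.2% of those of ZMYND8 and 36.0% of those of FLAG-ZMYND8 had the minimum width. Over the whole lists, 53.0% of 15086 and 54.7% of 63690 peaks did. A gene without a peak lacked a site past the threshold of the caller, which does not show that the protein was absent.

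**Figure D1:**
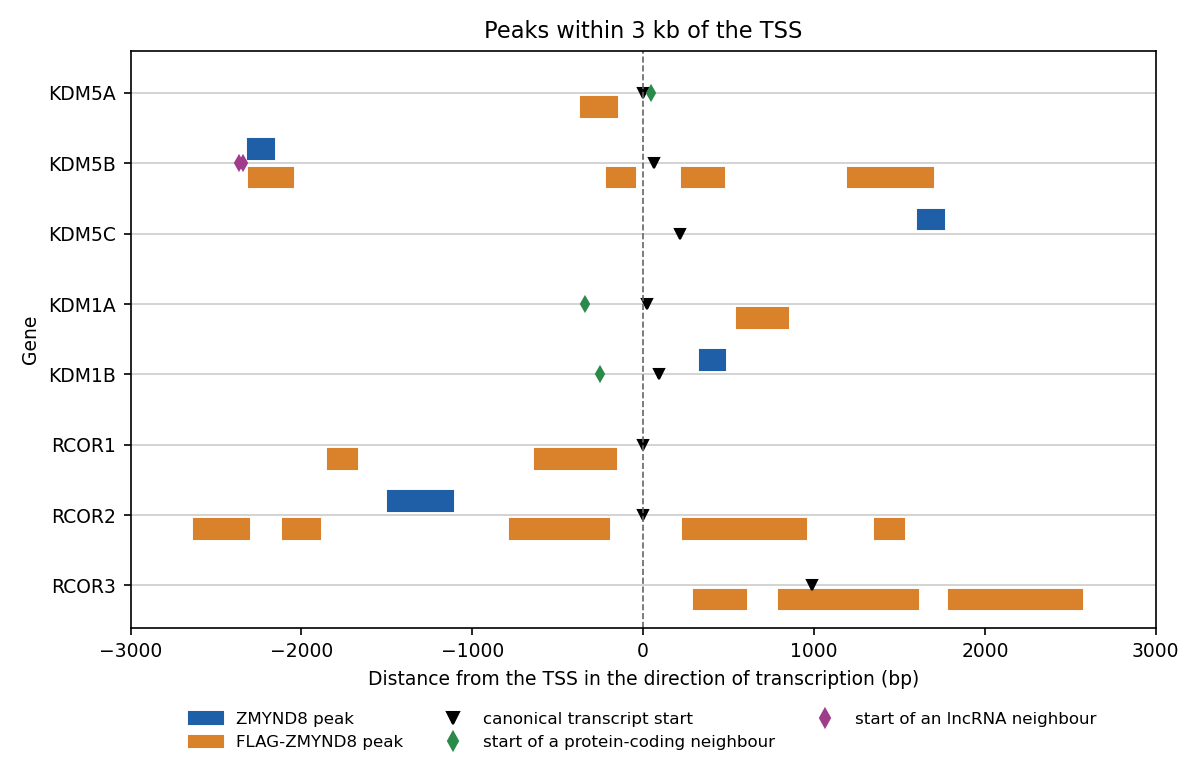
Peaks within 3 kb of the TSS of the 8 genes. The x axis is the distance from the TSS in bp in the direction of transcription, bars span each peak to scale (blue above the line, ZMYND8; orange below it, FLAG-ZMYND8), triangles mark the canonical transcript start, and diamonds mark the starts of neighbouring genes. The bars of the lists overlap at KDM5B alone, RCOR2 and RCOR3 carry the widest orange bars, and KDM5C and KDM1B have a blue bar only.

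The 3 KDM5 genes each had another pattern. KDM5B (ENSG00000117139; chr1:202693623-202777615, minus strand), which encodes a trimethyl H3K4 demethylase, had 1 ZMYND8 peak and 4 FLAG-ZMYND8 peaks near its TSS. Its ZMYND8 peak was 151 bp wide and centred 2238 bp upstream of the TSS. A FLAG-ZMYND8 peak of 255 bp was centred there too, 2177 bp upstream. The stretch they shared, chr1:202779778-202779919, was 142 bp long and made up 94.0% of the ZMYND8 peak and 55.7% of the FLAG-ZMYND8 peak. This place was nearer to the starts of the noncoding RNA genes PCAT6 and ENSG00000260021 than to that of KDM5B. The ZMYND8 midpoint lay 125 bp upstream of the start of PCAT6, which is on the plus strand, and 104 bp downstream of the start of ENSG00000260021, which is on the minus strand. These starts lie 2363 and 2342 bp from the KDM5B TSS, and to which of the 3 genes the peak belongs cannot be told apart from its position.

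The other FLAG-ZMYND8 peaks of KDM5B flanked its own TSS. A peak of 167 bp was centred 130 bp upstream of it, a peak of 250 bp lay 351 bp downstream in the first coding exon, and a peak of 497 bp lay 1448 bp downstream in intron 1 of the canonical transcript. The 4 peaks covered 1169 bp, and 7.61% of all protein-coding genes had at least as many FLAG-ZMYND8 bases within 3 kb. The ZMYND8 list had no peak among these 3, and its peak beside PCAT6 was the nearest to the KDM5B TSS.

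KDM5A (ENSG00000073614; chr12:389223-498486, minus strand), also a trimethyl H3K4 demethylase and long known as RBP2, had no ZMYND8 peak within 3 kb and a FLAG-ZMYND8 peak of 209 bp, chr12:498642-498850, centred 260 bp upstream of the TSS. The start of CCDC77 on the opposite strand lies 47 bp from that of KDM5A, so the peak was also 307 bp inside CCDC77. At least 209 bp were covered at 48.5% of all protein-coding genes, and the median over genes with a FLAG-ZMYND8 peak was 505 bp.

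KDM5C (ENSG00000126012; chrX:53205465-53254604, minus strand), the X-linked member whose loss is known to cause intellectual disability, had the reverse. Its ZMYND8 peak of 151 bp was centred 1686 bp downstream of the TSS in intron 1, and the gene held no FLAG-ZMYND8 peak from end to end. The nearest FLAG-ZMYND8 midpoint lay 27214 bp upstream of the TSS. The KDM5C peak had 1 CpG dinucleotide in 151 bp and a GC content of 55.0%, and 2.64% of the ZMYND8 peaks near protein-coding TSSs had as low a CpG density. Peaks were scarcer on chromosome X as a whole. ZMYND8 peaks lay near the TSS of 16.9% of 869 X-linked genes and 34.9% of 19229 autosomal genes, and FLAG-ZMYND8 peaks at 26.0% and 59.5%. A ZMYND8 peak without a FLAG-ZMYND8 peak was found at 6.10% of X-linked and 4.67% of autosomal genes. Whether the chromosome bears on the KDM5C pattern was not tested. KDM5D, the Y-linked relative, is no member here and had no peak in either list. The lists held 1 ZMYND8 and 2 FLAG-ZMYND8 peaks on the whole of chromosome Y. The lack of a peak at KDM5D therefore cannot be read as a lack of binding.

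KDM1A and KDM1B, which encode the flavin-dependent enzymes, had 1 peak each near the TSS, from different lists. KDM1A (ENSG00000004487; chr1:23345936-23410182, plus strand) had a FLAG-ZMYND8 peak of 296 bp centred 698 bp downstream of the TSS in intron 1, with 21 CpG dinucleotides, and the nearest ZMYND8 peak was 133305 bp downstream. The start of TEX46 on the opposite strand lies 343 bp from that of KDM1A. KDM1B (ENSG00000165097; chr6:18155560-18224085, plus strand) had a ZMYND8 peak of 151 bp centred 406 bp downstream of the TSS in intron 1, which was the ZMYND8 peak closest to the start of its gene among the 4. That peak held 8 CpG dinucleotides at a GC content of 66.2%. It also lay 658 bp upstream of the start of TPMT, which is transcribed the other way from a start 252 bp from that of KDM1B. The nearest FLAG-ZMYND8 peak to the KDM1B TSS was centred 13680 bp inside the gene, and 13115 bp separated it from the ZMYND8 peak.

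The 3 CoREST genes all had FLAG-ZMYND8 peaks near the TSS, and RCOR2 and RCOR3 had the most extended coverage of the 8 genes. RCOR2 (ENSG00000167771; chr11:63678702-63684636, minus strand) is the shortest of the genes at 5935 bp, and its FLAG-ZMYND8 peaks were centred 2468, 1999 and 490 bp upstream and 592 and 1443 bp downstream of the TSS. Their widths were 318, 221, 583, 717 and 167 bp, in the same order, and the widest lay in the untranslated first exon. The 5 peaks covered 2006 bp, and 1.45% of all protein-coding genes had at least as many FLAG-ZMYND8 bases within 3 kb. The ZMYND8 peak of RCOR2, chr11:63685752-63686131, was centred 1305 bp upstream, and 19.7% of the ZMYND8 list was as wide or wider. It stood in the gap between FLAG-ZMYND8 peaks, with 334 bases between it and the peak on its TSS side and 393 bases between it and the peak on its far side. Both lists thus had peaks within 3 kb of this TSS without sharing a base.

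RCOR3 (ENSG00000117625; chr1:211431719-211489727, plus strand) had no ZMYND8 peak, with the nearest 124133 bp upstream, but had 3 FLAG-ZMYND8 peaks in a row downstream of the TSS. They were 301, 812 and 783 bp wide and were centred at 450, 1204 and 2179 bp. The canonical transcript of RCOR3 starts 989 bp inside the annotated gene, and from that start the peaks were centred 539 bp upstream, 215 bp downstream in the first coding exon and 1190 bp downstream. The peak of 812 bp was the widest at any of the 8 TSSs and held 85 CpG dinucleotides. The 3 peaks covered 1896 bp, which 1.81% of all protein-coding genes reached. RCOR1 (ENSG00000089902; chr14:103058986-103196898, plus strand), the first CoREST protein to be described, had no ZMYND8 peak nearer than 47987 bp upstream. Its FLAG-ZMYND8 peaks of 167 and 475 bp were centred 1761 and 398 bp upstream and covered 642 bp, which 22.7% of all protein-coding genes reached. The peak of 475 bp had 12.4 CpG dinucleotides per 100 bp, the highest density among the peaks of the 8 genes.

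**Figure D2:**
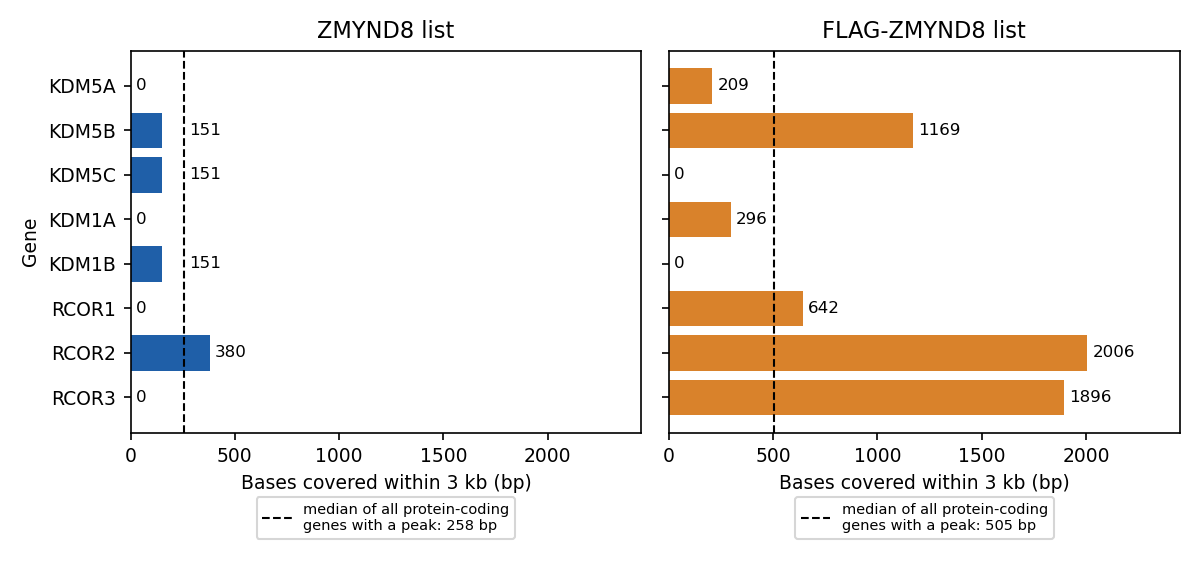
Bases covered by peaks within 3 kb of each TSS, in bp, for the ZMYND8 list (left) and the FLAG-ZMYND8 list (right), with 1 bar per gene and no error bar because each target has 1 list. Dashed lines give the median of all protein-coding genes with a peak (258 and 505 bp); RCOR2 (2006 bp), RCOR3 (1896 bp), KDM5B (1169 bp) and RCOR1 (642 bp) lie above it for FLAG-ZMYND8, and RCOR2 (380 bp) alone for ZMYND8.

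The order of the FLAG-ZMYND8 coverage was thus RCOR2, RCOR3, KDM5B, RCOR1, KDM1A and KDM5A, with KDM5C and KDM1B at 0. Whether neighbours in this order differ could not be judged without replicate lists. In the ZMYND8 list, KDM5B, KDM5C and KDM1B each had 151 bp, as the narrowest possible single peak gives.

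Most of the starts lay in CpG-rich DNA. In the 500 bp to each side of the TSS, 7 of the 8 genes were CpG-rich, here a GC content of at least 50% with an observed to expected CpG ratio of at least 0.6, as were 57.7% of all protein-coding genes. The exception, RCOR3, had 48.1% GC and a ratio of 0.594 at its annotated 5′ end, and 72.5% and 0.838 at its canonical start. Among the 7 CpG-rich genes, 4 had a ZMYND8 peak (48.5% of all CpG-rich genes) and 5 had a FLAG-ZMYND8 peak (77.9%). The ratio was 0.771 for KDM5C and 0.889 for KDM1B, the genes without a FLAG-ZMYND8 peak, and ran from 0.711 (RCOR2) to 0.984 (KDM1A) in the other CpG-rich ones. Both values thus lay inside the range of the genes with such a peak.

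Short sequence words known from promoters were counted as a description. In the 250 bases before the TSS, searched on both strands, the GC box GGGCGG was found in 6 of the 8 genes, all but KDM5C and RCOR3, and in 48.8% of all promoters. CCAAT was found in KDM5B, KDM1A, RCOR1 and RCOR3 and in 33.1% of all promoters. The ETS core CCGGAA was found in KDM5C alone and in 15.5% of all promoters. The E-box CACGTG was found in 0 of the 8 and in 7.16% of all promoters. The canonical starts of KDM5C and RCOR3 lie 215 and 989 bp inside the annotated 5′ end from which the search was made. The DNA just before those starts was therefore mostly (KDM5C) or wholly (RCOR3) outside it.

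In the gene bodies, FLAG-ZMYND8 peaks outnumbered ZMYND8 peaks, and the shares of genes with a body peak were near those of all protein-coding genes or somewhat above them. ZMYND8 peaks lay in the bodies of 3 of the 8 genes, KDM5A, KDM5C and KDM1B, with 1 peak each (background 37.5% of genes). FLAG-ZMYND8 peaks lay in 7 of the 8, all but KDM5C, with 26 peaks (background 64.8% of genes). Per 100 kb of gene, the 8 genes together had 0.520 ZMYND8 and 4.51 FLAG-ZMYND8 peaks, and all protein-coding genes had 0.781 and 3.36. Beyond 3 kb from the TSS, FLAG-ZMYND8 peaks were found in 5 of the 8 genes (background 44.6%), with 7 in RCOR1, 5 in KDM1B, 4 in KDM5B and 1 each in KDM5A and KDM1A. RCOR2 and RCOR3 had none there, although RCOR3 is 58009 bp long. All 18 of these peaks lay in introns of the canonical transcript, 14 had the minimum width, as did 63.0% of all FLAG-ZMYND8 peaks that far inside protein-coding genes, and the widest had 249 bp. KDM1B, which had no FLAG-ZMYND8 peak near its TSS, had 7.30 per 100 kb in its body, and all 5 of its peaks lay beyond 3 kb. KDM5B, which had 4 near its TSS, had 7.14, but only 4 of its 6 body peaks lay beyond 3 kb. Rates at least as high were found in 30.1% (KDM1B) and 30.6% (KDM5B) of all protein-coding genes.

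**Figure D3:**
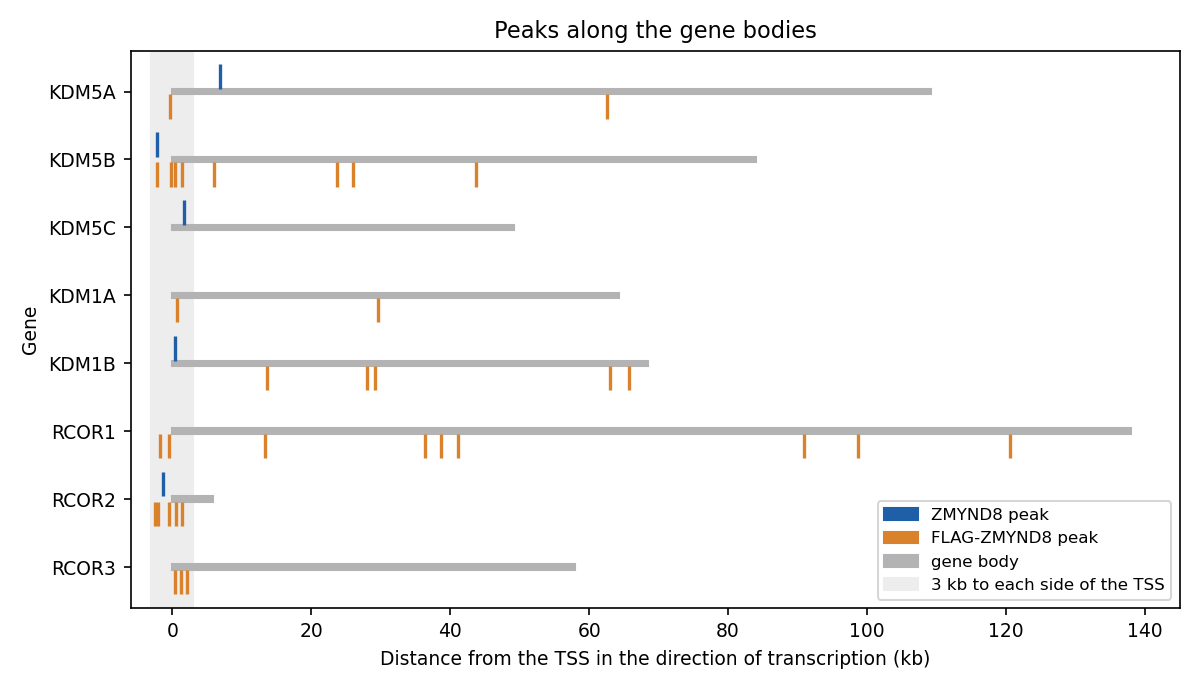
Peaks along the gene bodies. The x axis is the distance from the TSS in kb in the direction of transcription, grey bars are the gene bodies to scale, ticks are peak midpoints (blue above, ZMYND8; orange below, FLAG-ZMYND8) and shading marks 3 kb to each side of the TSS. Ticks outside the shading lie in KDM5A, KDM5B, KDM1A, KDM1B and RCOR1.

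The intronic peaks differed from those at the TSSs in base composition and in how often their sequence recurs in the genome. The 16 FLAG-ZMYND8 peaks near the TSSs had a median GC content of 65.1% (52.7 to 73.2%) and a median of 6.87 CpG dinucleotides per 100 bp. The 18 beyond 3 kb had a median GC content of 53.3% (47.9 to 64.7%) and a median of 2.39 per 100 bp. The same medians over all FLAG-ZMYND8 peaks were 62.1% and 5.88 near protein-coding TSSs, and 56.7% and 2.40 farther inside protein-coding genes, so the contrast in the 8 genes was also present in the list as a whole.

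**Figure D4:**
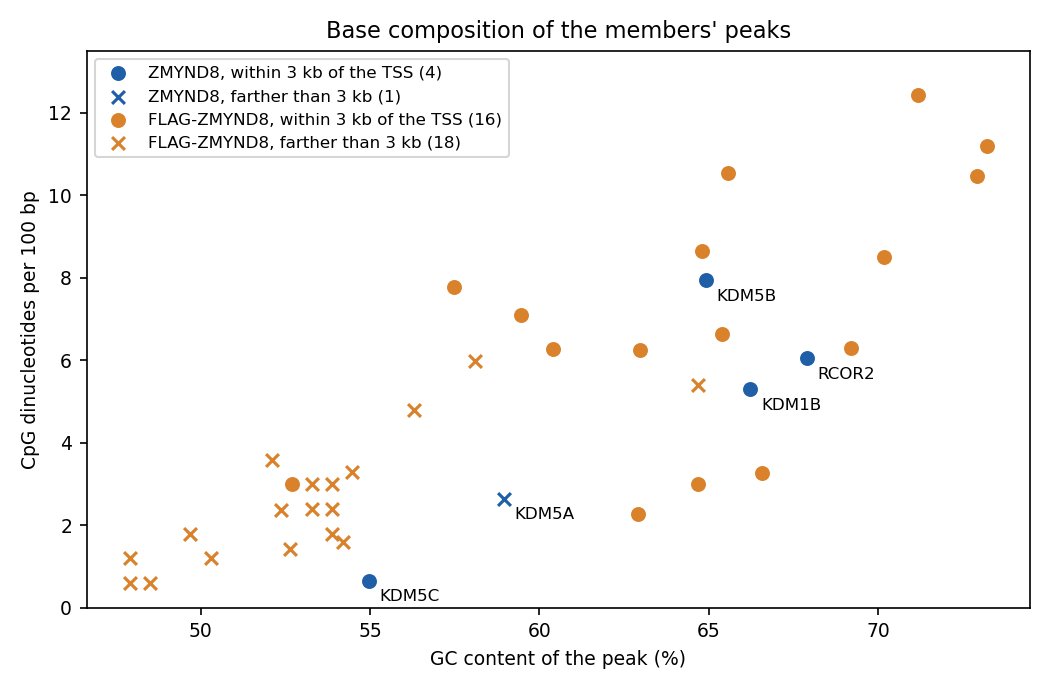
GC content (x axis, %) and CpG dinucleotides per 100 bp (y axis) of each peak of the 8 genes. Circles are peaks within 3 kb of the TSS and crosses are peaks farther inside the gene, in blue for ZMYND8 and orange for FLAG-ZMYND8; gene names mark the ZMYND8 peaks. Most crosses lie below 4 CpG dinucleotides per 100 bp, and the KDM5C ZMYND8 peak (0.662) is the circle that lies among the lowest crosses.

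For the second property, each peak was read as overlapping 24-base words and the copies of each word in hg19 were counted on both strands. A peak was called repeated when the median copy number of its words was above 1. Of the 20 peaks near the 8 TSSs, 0 were repeated. In 18 of the 20 every word occurred once, and in the lowest 98.3% did. Of the 18 FLAG-ZMYND8 peaks beyond 3 kb, 15 were repeated, or 83.3%, with median copy numbers from 2 to 3266. Over the whole FLAG-ZMYND8 list, 29.9% of the 28976 peaks inside protein-coding genes and beyond 3 kb were repeated, and 12.7% of the 19184 peaks near protein-coding TSSs, both by 5 evenly spaced words per peak, a reading that gave the same call as all words for all 34 FLAG-ZMYND8 peaks of the 8 genes. By the same reading, 3.68% of the 6360 ZMYND8 peaks near protein-coding TSSs were repeated, so repeated peaks were a minority there in both lists. In the gene bodies of the 8 genes as a whole, 23.2% of the words occurred more than once. That is a share of words and not of peaks, so it cannot be set directly against the shares of repeated peaks.

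The repeated peaks were spread over all 5 genes that had distant FLAG-ZMYND8 peaks. They made up all of those in KDM5A, KDM5B and KDM1A. The highest median, 3266 copies, was that of a KDM1B peak in intron 7, with 78.6% of its words in more than 1 copy. The KDM5A ZMYND8 peak, centred 6939 bp inside the gene, had 86.7% of its words in more than 1 copy, a median of 687.5 copies and up to 59327. In the ZMYND8 list as a whole, 12.9% of the peaks inside protein-coding genes beyond 3 kb were repeated.

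Distant peaks in unrepeated sequence were found in KDM1B and RCOR1. The RCOR1 peaks centred 90954 and 98684 bp inside the gene, both in intron 3 and of minimum width, had 100% and 95.8% of their words in a single copy. The KDM1B peak centred 65734 bp inside the gene had 73.6%. How reads with several possible positions were treated is not given in the sources used here, and its part in the placing of the repeated peaks was not tested.

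**Figure D5:**
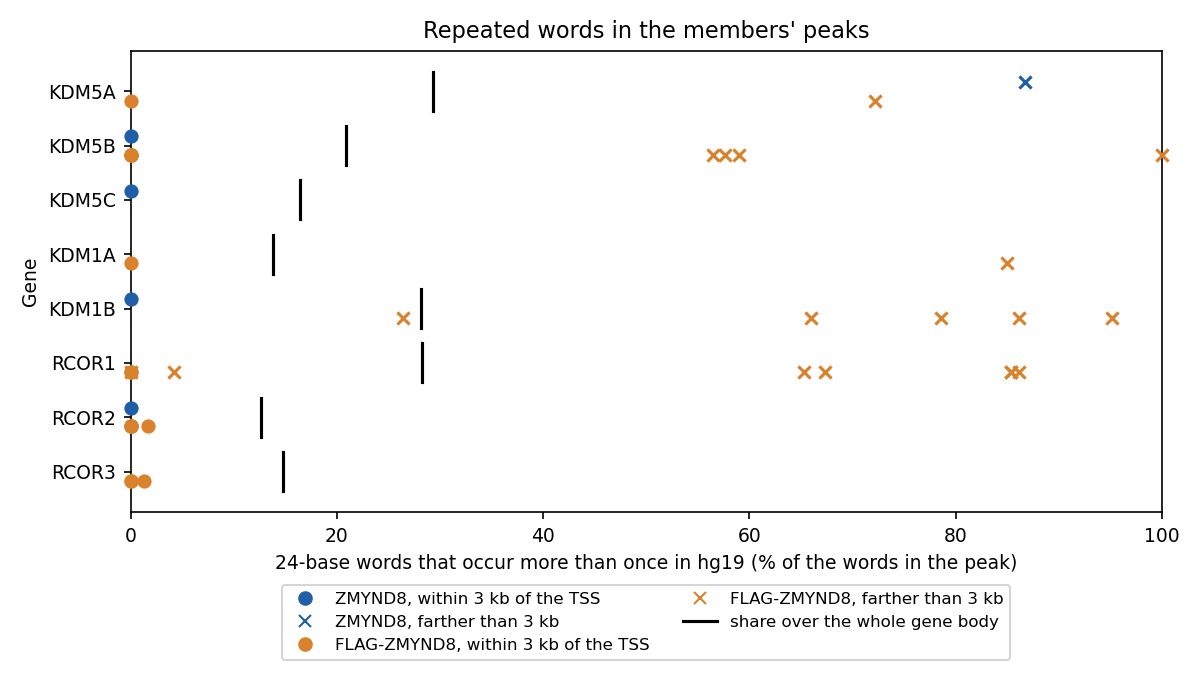
Share of the 24-base words of each peak that occur more than once in hg19 (x axis, %), by gene. Circles are peaks within 3 kb of the TSS and crosses are peaks farther inside the gene, in blue for ZMYND8 and orange for FLAG-ZMYND8, and black lines give the share over the whole gene body. All circles lie at or near 0, 1 RCOR1 cross lies among them, and most crosses lie to the right of the black line of their gene.

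The partners of these enzymes and the enzymes that write the mark were looked at for comparison. Of 15 genes for proteins known to work with CoREST or KDM1A, 13 had a FLAG-ZMYND8 peak near the TSS (background 58.1%) and 9 one of ZMYND8 (34.1%). All 9 had both (29.4%), 4 had FLAG-ZMYND8 only (28.7%), and 2, HDAC2 and HMG20B, had neither (37.2%). The widest peaks there were ZMYND8 peaks of 2438 bp at GFI1, which encodes a repressor that recruits KDM1A, and 1957 bp at ZMYM2. At the 8 genes the widest ZMYND8 peak had 380 bp and the widest FLAG-ZMYND8 peak 812 bp. HDAC1, the deacetylase of the same complex as HDAC2, had 1 ZMYND8 peak of 151 bp and 4 FLAG-ZMYND8 peaks. Of 10 genes for H3K4 methyltransferases and their core subunits, 9 had a FLAG-ZMYND8 peak (58.1%) and 5 one of ZMYND8 (34.1%). Both kinds were found at 4 (29.4%), FLAG-ZMYND8 only at 5 (28.7%) and neither at 0 (37.2%), as at 0 of the 8 genes. SETD1A, with a ZMYND8 peak of 151 bp and no FLAG-ZMYND8 peak, was the sole gene of these 25 with the pattern of KDM5C and KDM1B, which 4.73% of all protein-coding genes had. KMT2D had a ZMYND8 peak of 1167 bp and SETD1B a FLAG-ZMYND8 peak of 1238 bp.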

How the data were processed

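Reads were aligned by the authors with BWA-MEM against hg19, HOMER was used for profiles, and the processing notes name BWA 0.7 and HOMER. The peak-calling settings, the way replicates were combined and the treatment of reads with several positions are not given in the sources used here. The deposited lists hold positions, a strand and a score, and the authors' score is 1 in every row. Peak midpoints were placed against genes of GENCODE release 44 on GRCh37, and overlap meant at least 1 bp. Shares over 20098 protein-coding genes served as background. Placement functions were tested on simulated lists. Python 3.11.15, numpy 2.4.6, pandas 2.3.3, pysam 0.24.0 and matplotlib 3.10.9 were used. The 8 genes and the comparison lists were chosen with earlier results of these data known, and within the comparison lists the genes named were those with the widest peaks or with no peak, while HDAC1 and SETD1A were named after their values were seen. Canonical starts and word copies were added after the data were seen. The sequences of repeated peaks are not reported here. Alternatives were other windows, other starts, whole-peak overlap, a 50% reciprocal overlap and peaks above the minimum width.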

Additional observations from a re-analysis of the deposited data

How the results depend on the processing

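The number of genes with a FLAG-ZMYND8 peak near the TSS stayed within 1.5 times the main value of 6 under every alternative run, whereas the ZMYND8 counts depended on the window and on peaks of minimum width. With a window of 1 kb, 1 gene (KDM1B) had a ZMYND8 peak, with 1 peak, 0 had both kinds, 0 had an overlap, and 8 FLAG-ZMYND8 peaks were left. With a window of 500 bp, these values were 1, 1, 0, 0 and 6. With peaks wider than the minimum, 1 gene (RCOR2) had a ZMYND8 peak, with 1 peak, 1 had both kinds, 0 had an overlap, and the gene bodies held 0 ZMYND8 and 11 FLAG-ZMYND8 peaks. The background shares moved too, to 28.5%, 21.5% and 23.0% of genes for ZMYND8 and to 49.3%, 37.6% and 46.3% for FLAG-ZMYND8 (1 kb, 500 bp and wider peaks). Background shares of genes with both kinds or with an overlap were not taken under these settings. The counts kept within 1.5 times with whole-peak overlap, with all transcript starts (21 FLAG-ZMYND8 peaks against 16) and with canonical starts, and the overlap at KDM5B also met the 50% reciprocal criterion. No paired analysis was possible because each target has 1 pooled list. Without counts or replicate lists, neither depth nor the reliability of single peaks of minimum width could be judged.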
